A study of Homo sapiens with 12 samples.

Results

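Chemokines are small secreted proteins that direct the movement of leukocytes along a gradient. The gene group described here held 9 chemokines and 1 chemokine-binding receptor, 10 genes of the 57370 in the deposited counts table, and was chosen by symbol: CXCL9, CXCL10, CXCL11, CXCL1, CXCL2, CXCL3, CXCL8, CCL20, CCL22 and ACKR3. The symbols were chosen with earlier results of these data known. Each symbol matched 1 gene identifier in the table. The cells were HaCaT, an immortalised human keratinocyte line, sequenced as 12 RNA libraries in 4 groups of 3 biological replicates. HaCaT_ctrl cells carried a doxycycline-inducible lentiviral vector with a scrambled short hairpin RNA, and HaCaT_sh cells carried the same vector with a hairpin against IQGAP3, a scaffold protein of growth factor and cytoskeletal signalling. Both lines were puromycin-selected stable clones, so that line and clone cannot be told apart. HaCaT_ctrl+cyto and HaCaT_sh+cyto were the same lines after 24 h of doxycycline and then 72 h of doxycycline with a mix of 3 cytokines, IFNγ (20 ng/ml), IL17 (100 ng/ml) and TNFα (25 ng/ml), which act on keratinocytes in psoriatic skin. The labels of HaCaT_ctrl and HaCaT_sh give no treatment, and whether these cells received doxycycline is not stated. If they did not, cytokines and doxycycline differ together in each cytokine comparison and cannot be told apart. Below, "with cytokines" names the stimulated groups.

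The 12 libraries held between 13079055 and 17308021 counts. Values below are CPM, counts scaled to a common library size by TMM, in the order of replicates 1, 2 and 3. A gene was called higher or lower when the Benjamini-Hochberg adjusted p of edgeR's quasi-likelihood test was below 0.01 and the change was at least 2-fold. Where groups are said not to overlap, the wording describes the libraries only. The share of all genes without such overlap was not counted. IQGAP3 itself went against the label in unstimulated cells: it measured 74.8, 70.2 and 77.1 CPM in HaCaT_ctrl and 115, 101 and 98.0 CPM in the libraries labelled HaCaT_sh, a log2 fold change of 0.50 (edgeR adjusted p = 4.68e-06). With cytokines it measured 1.89, 3.96 and 4.06 CPM in HaCaT_ctrl+cyto and 1.15, 1.64 and 0.911 CPM in HaCaT_sh+cyto (log2 fold change −1.44, edgeR adjusted p = 0.0158). Every direction between the lines given below is therefore a direction between libraries as labelled. Of 8 keratinocyte markers all were detected, with a summed level of 9827 to 11258 CPM without and 4930 to 7939 CPM with cytokines. KRT5, a keratin of basal keratinocytes, fell from a mean of 3696 to 72.8 CPM in the control line and from 4439 to 151 CPM in the libraries labelled HaCaT_sh. Of the 8 markers 1 was called higher and 3 lower in the control line and 2 higher and 2 lower in the other, the desmosomal cadherin DSG3 rising in both (log2 fold change 1.38 and 1.84). Of all genes, 35.9% were called in either direction in each line. The 6 matched T cell markers and the 8 macrophage and dendritic cell markers were below 1 CPM in every library. Of 6 neutrophil markers 5 were below 1 CPM throughout, and their sum was at most 1.80 CPM. Fibroblast markers summed to between 20.4 and 22.4 CPM in unstimulated libraries, to between 2.06 and 3.72 CPM in HaCaT_ctrl+cyto and to between 7.34 and 9.25 CPM in HaCaT_sh+cyto, and endothelial markers to between 16.1 and 30.6 CPM and at most 1.89 CPM. The part of these shifts in the results below was not tested, and in bulk RNA fewer cells that express a gene and less RNA per cell cannot be told apart.

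The members fall into functional classes. CXCL9, CXCL10 and CXCL11 are the ligands of CXCR3, the receptor by which activated T cells and natural killer cells are drawn into inflamed tissue, and their transcription is the textbook response to IFNγ. CXCL1, CXCL2, CXCL3 and CXCL8 carry the ELR amino acid motif and attract neutrophils through CXCR2, and they are classical targets of NF-kB downstream of TNFα and IL17. CCL20 is the ligand of CCR6 on T cells and dendritic cells, CCL22 is the ligand of CCR4 on T helper and regulatory T cells, and ACKR3 is an atypical receptor that takes up CXCL11 and CXCL12 without G protein signalling. In psoriatic skin, keratinocytes are a known source of T-cell and neutrophil chemokines.

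The members lie in few clusters of the genome (GRCh37, Gencode annotation). On chromosome 4, the neutrophil chemokine genes were CXCL8 (chr4:74606236-74609433), CXCL1 (chr4:74735110-74737025), CXCL3 (chr4:74902306-74904524) and CXCL2 (chr4:74962757-74964913). The T-cell chemokine genes lie beside each other further along the same chromosome, CXCL9 at chr4:76922428-76928662, CXCL10 at chr4:76942271-76944650 and CXCL11 at chr4:76954835-76962568, all on the minus strand. CCL20 (chr2:228670455-228682280) and ACKR3 (chr2:237476430-237490997) lie on chromosome 2, and CCL22 (chr16:57392695-57400101) on chromosome 16. CXCL10 and CXCL11 overlap ART3 on the opposite strand with no shared exon, and ART3 held 2 counts over all libraries against 5267 for CXCL10.

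Since transcription of these genes is known to respond to IFNγ, TNFα and IL17, the start regions of 6 members are shown, 3 of each class contrasted below. They are the bases from −250 to −51 before the RefSeq transcription start, from the RefSeq promoter table (GRCh38.p14), each matched once to GRCh37 at the coordinates given. Capitals mark a match to 1 of 4 motifs, searched on both strands in the 250 bases before the start: the NF-kB core GGAANTTCC, the core of the interferon-stimulated response element (ISRE), which is GAAA, any 2 bases and GAAA again, the gamma-activated site (GAS) TTCNNNGAA and the AP-1 site TGANTCA. The T-cell chemokines CXCL9 (chr4:76928713-76928912), CXCL10 (chr4:76944701-76944900) and CXCL11 (chr4:76957274-76957473, in an intron of a longer annotated transcript) were read on the minus strand:
CXCL9: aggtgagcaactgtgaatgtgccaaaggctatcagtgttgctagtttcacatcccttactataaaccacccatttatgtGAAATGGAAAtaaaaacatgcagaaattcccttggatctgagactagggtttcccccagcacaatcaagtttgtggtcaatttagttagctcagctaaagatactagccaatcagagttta
CXCL10: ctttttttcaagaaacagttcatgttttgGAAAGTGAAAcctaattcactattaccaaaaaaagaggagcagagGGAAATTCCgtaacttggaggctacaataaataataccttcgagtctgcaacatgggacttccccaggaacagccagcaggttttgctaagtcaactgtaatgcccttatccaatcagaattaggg
CXCL11: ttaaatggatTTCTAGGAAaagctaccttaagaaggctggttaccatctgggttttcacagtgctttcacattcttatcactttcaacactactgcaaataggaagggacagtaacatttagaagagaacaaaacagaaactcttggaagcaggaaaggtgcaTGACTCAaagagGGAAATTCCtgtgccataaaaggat
The neutrophil chemokines CXCL1 (chr4:74734860-74735059, plus strand), CXCL2 (chr4:74964963-74965162, minus strand) and CXCL8 (chr4:74606036-74606235, plus strand) are shown for contrast:
CXCL1: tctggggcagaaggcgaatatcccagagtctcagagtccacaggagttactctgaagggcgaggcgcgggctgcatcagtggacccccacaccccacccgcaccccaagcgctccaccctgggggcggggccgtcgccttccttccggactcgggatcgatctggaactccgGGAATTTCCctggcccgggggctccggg
CXCL2: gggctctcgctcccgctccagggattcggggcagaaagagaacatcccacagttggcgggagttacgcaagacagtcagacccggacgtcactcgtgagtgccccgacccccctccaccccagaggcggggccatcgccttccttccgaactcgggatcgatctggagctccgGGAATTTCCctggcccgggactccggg
CXCL8: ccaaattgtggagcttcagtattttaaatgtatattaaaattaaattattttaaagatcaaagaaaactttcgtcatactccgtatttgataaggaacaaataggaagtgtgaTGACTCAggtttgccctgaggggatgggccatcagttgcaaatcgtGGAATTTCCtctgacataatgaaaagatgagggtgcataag
The ISRE core matched only CXCL9 (from −171) and CXCL10 (from −221) among the 9 members with a window, and it occurs in 3.02% of 35116 promoter windows of the same length. The NF-kB core, found in 0.826% of them, matched 6 of the 9 members: CXCL10 from −176, CXCL11 from −75, CXCL1 from −78, CXCL2 from −77, CXCL3 from −78 and CXCL8 from −91. The AP-1 site, in 6.57% of windows, matched CXCL8 from −137 and CXCL11 from −87, and CXCL11 also held a GAS from −240, a motif in 6.57% of windows. None of these letters occurred in the windows of CCL20 and CCL22, and no matches overlapped. The windows of CXCL1 and CXCL3 were 81.4% identical over the aligned columns, those of CXCL2 and CXCL3 73.4% and those of CXCL1 and CXCL2 70.1%. A match is a description of the letters and shows no binding. The motifs are strict strings, so a window without a match may still hold a variant of the site.

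**Figure D1:**
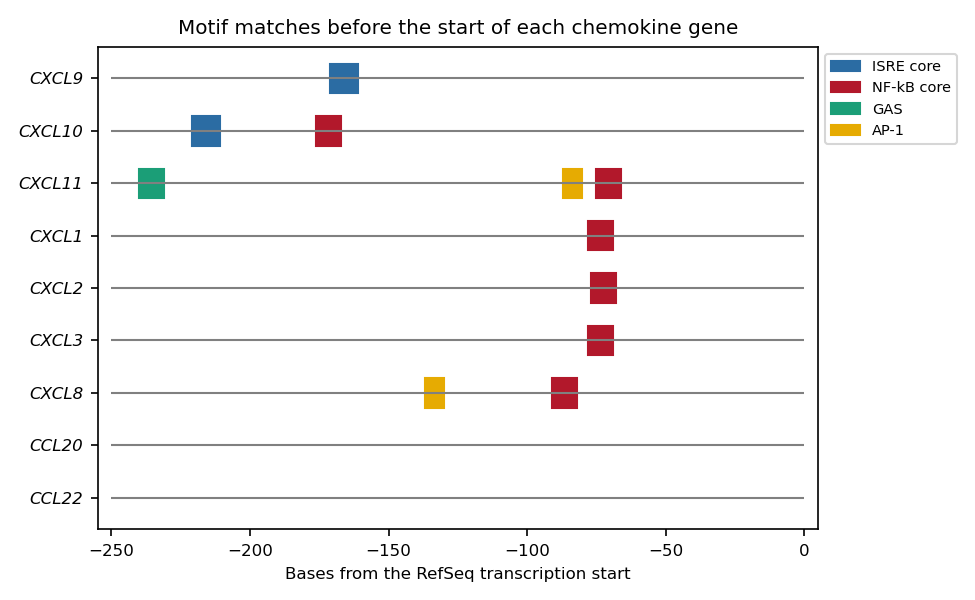
Matches to 4 motifs (coloured boxes) in the 250 bases before the RefSeq transcription start of 9 members, with distance from the start in bases on the x axis. The NF-kB core lies between 91 and 67 bases before the start in CXCL11, CXCL1, CXCL2, CXCL3 and CXCL8, and further away, from −176, in CXCL10.

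The T-cell chemokines were not detected, or nearly so, in unstimulated cells of either line and rose in the cytokine-treated libraries of both. CXCL9 had 0 counts in all 6 unstimulated libraries, where 3 counts correspond to at most 0.197 CPM. With cytokines it measured 10.4, 13.5 and 17.8 CPM in HaCaT_ctrl+cyto (159, 215 and 294 counts) and 51.9, 59.7 and 64.4 CPM in HaCaT_sh+cyto (813, 728 and 919 counts). Set against a floor of 3 counts over a group, CXCL9 was at least 238-fold higher with cytokines in the control line and at least 997-fold higher in the libraries labelled HaCaT_sh. CXCL10 was also without a count in unstimulated cells and measured 18.4, 16.8 and 23.1 CPM in HaCaT_ctrl+cyto against 74.0, 68.6 and 164 CPM in HaCaT_sh+cyto. Its increase was at least 332-fold and at least 1756-fold. CXCL11 had 5, 1 and 3 counts in HaCaT_ctrl (0.328, 0.0579 and 0.161 CPM) and 0 in the libraries labelled HaCaT_sh. With cytokines CXCL11 reached 5.47, 4.40 and 5.69 CPM in HaCaT_ctrl+cyto and 22.0, 19.2 and 43.6 CPM in HaCaT_sh+cyto, so that the stimulated groups of each of these genes did not overlap with each other or with the unstimulated groups. The response of CXCL11 in the control line was 4.85 ± 0.33 (log2 fold change ± SE, edgeR adjusted p = 4.47e-07), or 5.48 without HaCaT_ctrl replicate 1, and its increase in the libraries labelled HaCaT_sh was at least 487-fold.

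**Figure D2:**
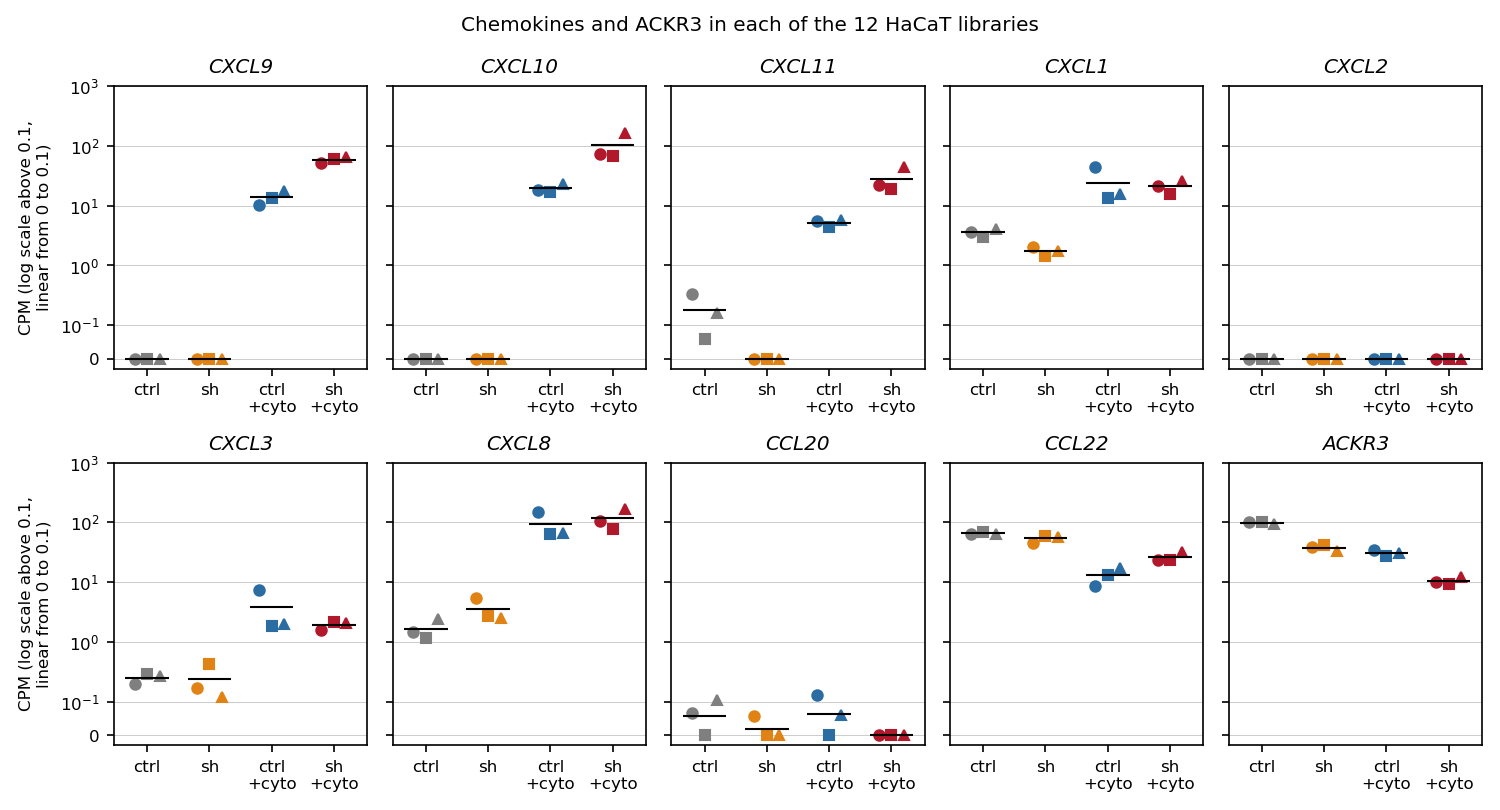
CPM of the 10 members in each of the 12 libraries (symbols: circle, square and triangle for replicates 1, 2 and 3, lines: group means), on an axis that is linear from 0 to 0.1 and logarithmic above. CXCL9, CXCL10 and CXCL11 rise from 0 or near 0 with cytokines and lie higher in HaCaT_sh+cyto than in HaCaT_ctrl+cyto, CXCL2 stays at 0 throughout, and CCL22 and ACKR3 fall with cytokines.

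Of the neutrophil chemokines, CXCL1, CXCL3 and CXCL8 rose with cytokines from low levels in both lines, and CXCL2 was not detected. CXCL8, the main neutrophil attractant of human skin, measured 1.44, 1.16 and 2.42 CPM in HaCaT_ctrl and 148, 65.0 and 65.2 CPM in HaCaT_ctrl+cyto, a log2 fold change of 5.79 ± 0.43 or 55.5-fold (edgeR adjusted p = 7.10e-07). In the libraries labelled HaCaT_sh it measured 5.42, 2.74 and 2.54 CPM and rose to 104, 78.7 and 169 CPM, by 5.03 ± 0.33 or 32.7-fold (edgeR adjusted p = 1.59e-07). The stimulated libraries of both lines lay far above all 6 unstimulated libraries and overlapped with each other. CXCL1 measured 3.68, 2.95 and 4.14 CPM in HaCaT_ctrl and 43.5, 13.6 and 15.7 CPM in HaCaT_ctrl+cyto (log2 fold change 2.78 ± 0.44, edgeR adjusted p = 2.03e-04). In the line labelled HaCaT_sh, CXCL1 rose from 2.01, 1.46 and 1.71 CPM to 21.5, 15.8 and 25.5 CPM (3.60 ± 0.21, edgeR adjusted p = 6.36e-08). For CXCL1, too, no stimulated library overlapped with an unstimulated library. CXCL3 had between 2 and 7 counts in each unstimulated library. It rose to 7.50, 1.82 and 2.00 CPM in HaCaT_ctrl+cyto (3.87 ± 0.73, edgeR adjusted p = 7.05e-04) and to 1.60, 2.13 and 2.10 CPM in HaCaT_sh+cyto (3.01 ± 0.38, edgeR adjusted p = 2.79e-05). Without HaCaT_ctrl+cyto replicate 1 the response of the control line was 2.90 for CXCL3 and 2.05 for CXCL1, both still called. Without HaCaT_sh replicate 2 the response of CXCL3 in the line labelled HaCaT_sh was 3.69, also called.

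CXCL2 had 0 counts in all 12 libraries, which allows a level of up to 0.161 to 0.246 CPM per library (3 counts). The exons of CXCL2 share 139 of 1444 windows of 50 bases (9.63%) with those of CXCL3 and 60 (4.16%) with those of CXCL1. Only transcripts of the members were compared, in a later annotation than the authors used. The reason for the 0 counts was not tested. CCL20, like CXCL8 a chemokine of the IL17 response in skin, had between 0 and 2 counts in every library with or without cytokines. Genes entered a test when 50% or more of the compared libraries reached 1 CPM. Neither gene passed this filter in any comparison, and no change was detectable for them at this depth.

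CCL22 and ACKR3 moved the other way. CCL22 measured 63.5, 70.0 and 63.9 CPM in HaCaT_ctrl and 8.67, 13.1 and 17.1 CPM in HaCaT_ctrl+cyto, and fell by 2.31 on the log2 scale (SE 0.18, edgeR adjusted p = 1.09e-06). In the libraries labelled HaCaT_sh it measured 44.7, 60.1 and 57.6 CPM and with cytokines 23.9, 23.2 and 31.9 CPM, a fall by 1.03 (log2 fold change −1.03, SE 0.14, edgeR adjusted p = 4.71e-05). The control line had the highest unstimulated and the lowest stimulated CCL22 values, and stimulated and unstimulated groups did not overlap in either line. ACKR3 measured 101, 100.0 and 93.5 CPM in HaCaT_ctrl and 35.1, 27.2 and 30.4 CPM in HaCaT_ctrl+cyto (−1.64 ± 0.09, edgeR adjusted p = 1.04e-07). In the libraries labelled HaCaT_sh, ACKR3 went from 38.0, 41.8 and 33.6 CPM to 10.1, 9.18 and 12.3 CPM (−1.83 ± 0.12, edgeR adjusted p = 1.56e-07).

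Of the 10 members, 8 passed the filter in each cytokine comparison, and in each of them 6 were called higher (CXCL9, CXCL10, CXCL11, CXCL1, CXCL3 and CXCL8) and 2 lower (CCL22 and ACKR3). Over all genes tested in the control line, 14.7% were called higher and 21.1% lower (35.9% in either direction). The libraries labelled HaCaT_sh gave 14.9% higher, 21% lower and 35.9% in either direction. A member absent from unstimulated cells could pass the filter only where cytokines raised it, so these counts describe the members and are no measure of how often chemokines respond. When libraries were scaled by their size alone, the median log2 fold change of all genes fell by 0.21 in both comparisons and the share of higher among called genes went from 41.1% to 30.2% in the control line and from 41.6% to 30.6% in the libraries labelled HaCaT_sh, while all 16 calls of members stood. The fall of CCL22 in the libraries labelled HaCaT_sh lay close to the 2-fold limit, with values from −0.94 to −1.19 when each library was left out, and the call was lost without HaCaT_sh replicate 2 (−0.94) or 3 (−0.98) and without HaCaT_sh+cyto replicate 1 (−0.96) or 2 (−0.95).

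Between the lines without cytokines, ACKR3 differed most clearly. It measured 33.6 to 41.8 CPM in the libraries labelled HaCaT_sh against 93.5 to 101 CPM in HaCaT_ctrl, a log2 fold change of −1.37 ± 0.07 or 2.59-fold lower (edgeR adjusted p = 4.28e-10). The neutrophil chemokines moved in opposite directions at low levels: CXCL1 was 2.06-fold lower (−1.04 ± 0.20, edgeR adjusted p = 2.94e-04) and CXCL8 was 2.12-fold higher (1.08 ± 0.31, edgeR adjusted p = 0.00682) in the libraries labelled HaCaT_sh. The groups did not overlap for CXCL8, but only narrowly, since the highest HaCaT_ctrl library held 2.42 CPM and the lowest HaCaT_sh library 2.54 CPM. CCL22 was 1.21-fold lower (−0.28 ± 0.09, edgeR adjusted p = 0.00992), under the 2-fold limit. Of 4 members tested 1 was therefore called higher and 2 lower, where 3.8% and 5.07% of all genes were, 8.87% in either direction. Since members were chosen with earlier results of these data known, these counts are no measure of how often chemokines differ. The calls of CXCL1 and CXCL8 were less stable than that of ACKR3: CXCL1 was not called without HaCaT_ctrl replicate 3 (−0.92) or HaCaT_sh replicate 2 (−0.94), CXCL8 not without HaCaT_ctrl replicate 1 (0.99) or 2 (0.87) or HaCaT_sh replicate 1 (0.64), and neither when all 12 libraries shared 1 fit (edgeR adjusted p = 0.114 and 0.173).

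Between the lines under cytokines, the T-cell chemokines were higher in HaCaT_sh+cyto and no difference was called for the neutrophil chemokines. CXCL9 was 4.22-fold higher (log2 fold change 2.08 ± 0.17, edgeR adjusted p = 8.94e-05), CXCL10 5.26-fold higher (2.40 ± 0.31, edgeR adjusted p = 9.44e-04) and CXCL11 5.46-fold higher (2.45 ± 0.30, edgeR adjusted p = 7.34e-04) in HaCaT_sh+cyto than in HaCaT_ctrl+cyto. For each of these 3 genes all 3 HaCaT_sh+cyto libraries lay above all 3 HaCaT_ctrl+cyto libraries, an exact permutation p of 0.1, the smallest that 3 against 3 libraries allow. HaCaT_sh+cyto replicate 3 held 2.30 times the CXCL10 and 2.12 times the CXCL11 of the mean of the other libraries of its group. Leaving out each of the 6 libraries in turn gave log2 fold changes of 1.90 to 2.29 for CXCL9, 1.87 to 2.61 for CXCL10 and 1.99 to 2.66 for CXCL11, all called.

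The corresponding values of the neutrophil chemokines were 0.34 ± 0.34 for CXCL8 (edgeR adjusted p = 0.488), −0.20 ± 0.39 for CXCL1 (edgeR adjusted p = 0.731) and −0.95 ± 0.52 for CXCL3 (edgeR adjusted p = 0.202). Approximate 95% intervals (normal, from the SE) ran from −0.33 to 1.01 for CXCL8, from −0.96 to 0.56 for CXCL1 and from −1.98 to 0.08 for CXCL3, and did not reach the lowest interval bound of CXCL9, CXCL10 and CXCL11, 1.74. The fit therefore left room for a change of up to about 2-fold in CXCL8 and for a level lower by up to 1.98 on the log2 scale in CXCL3. It does not show that the lines were alike. HaCaT_ctrl+cyto replicate 1 stood apart for these genes, with 2.27 times the CXCL8, 2.97 times the CXCL1 and 3.92 times the CXCL3 of the mean of the other libraries of its group. Without it the values were 0.84 for CXCL8 (edgeR adjusted p = 0.0341), 0.51 for CXCL1 (edgeR adjusted p = 0.0663) and 0.01 for CXCL3 (edgeR adjusted p = 0.981), none called. Without HaCaT_sh+cyto replicate 3, with 1.85 times the CXCL8 of its group, CXCL8 was at −0.02 (edgeR adjusted p = 0.978).

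**Figure D3:**
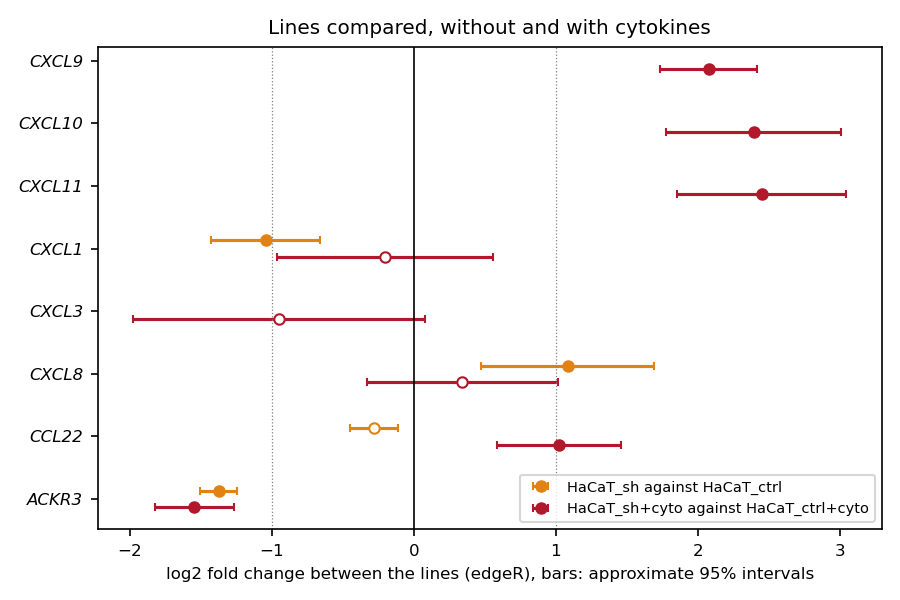
Log2 fold change of libraries labelled HaCaT_sh against HaCaT_ctrl without cytokines (orange) and with cytokines (red) for the members tested, with bars of approximate 95% intervals and filled symbols for called genes, dotted lines marking the 2-fold limit. With cytokines CXCL9, CXCL10 and CXCL11 lie between 2.08 and 2.45 while the bars of CXCL1, CXCL3 and CXCL8 cross 0, and ACKR3 lies below −1 in both comparisons.

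CCL22 and ACKR3 also differed between the stimulated lines. CCL22 was 2.03-fold higher in HaCaT_sh+cyto (1.02 ± 0.22, edgeR adjusted p = 0.00988), at 23.2 to 31.9 CPM against 8.67 to 17.1 CPM, without overlap. The call of CCL22 lay at both limits: it was lost with scaling by library size alone (0.94, edgeR adjusted p = 0.0123) and without any of 5 of the 6 libraries, where the values were 0.80 (without HaCaT_ctrl+cyto replicate 1), 1.03 (without HaCaT_ctrl+cyto replicate 2), 1.09, 1.10 and 0.86 (without HaCaT_sh+cyto replicate 1, 2 or 3). ACKR3 was 2.92-fold lower (−1.55 ± 0.14, edgeR adjusted p = 1.39e-04), with all HaCaT_sh+cyto libraries at 12.3 CPM or less and all HaCaT_ctrl+cyto libraries at 27.2 CPM or more, and was called in every alternative. Of 8 members tested 4 were called higher and 1 lower, where 2.5% and 1.63% of all genes were, 4.13% in either direction. These counts, too, describe members chosen with earlier results known and are no measure of how often chemokines differ. Here 8 keratinocyte markers included 2 that were called higher in HaCaT_sh+cyto, and their sum was 6804 to 7939 CPM against 4930 to 5641 CPM in HaCaT_ctrl+cyto. The fibroblast marker COL1A1, a collagen chain, was also called higher (1.60, edgeR adjusted p = 0.00171), at a mean of 8.16 against 2.70 CPM. The part of these differences in the chemokine values was not tested.

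The balance of both chemokine classes was set side by side within each library, which needs no scaling. Of the counts of CXCL9, CXCL10, CXCL11, CXCL1, CXCL2, CXCL3 and CXCL8 together, the T-cell chemokines made up 14.7% (95% Wilson interval 13.6 to 15.9%), 30.1% (28.1 to 32.3%) and 36.0% (34.0 to 38.0%) in HaCaT_ctrl+cyto. In HaCaT_sh+cyto they made up 53.8% (52.3 to 55.3%), 60.4% (58.6 to 62.2%) and 58.1% (56.9 to 59.2%). The intervals cover counting error only. The group means were 26.9% ± 11.0 and 57.4% ± 3.37 (SD, n = 3), and the groups did not overlap. In unstimulated libraries the T-cell chemokines had at most 5 counts beside 74 to 136 counts of the neutrophil chemokines. Summed CPM of the T-cell chemokines was 38.5 ± 7.03 in HaCaT_ctrl+cyto and 189 ± 71.6 in HaCaT_sh+cyto, and that of the neutrophil chemokines 121 ± 67.8 and 140 ± 51.0 (SD, n = 3). The lowest T-cell share belonged to HaCaT_ctrl+cyto replicate 1, the library with the high CXCL1, CXCL3 and CXCL8.

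**Figure D4:**
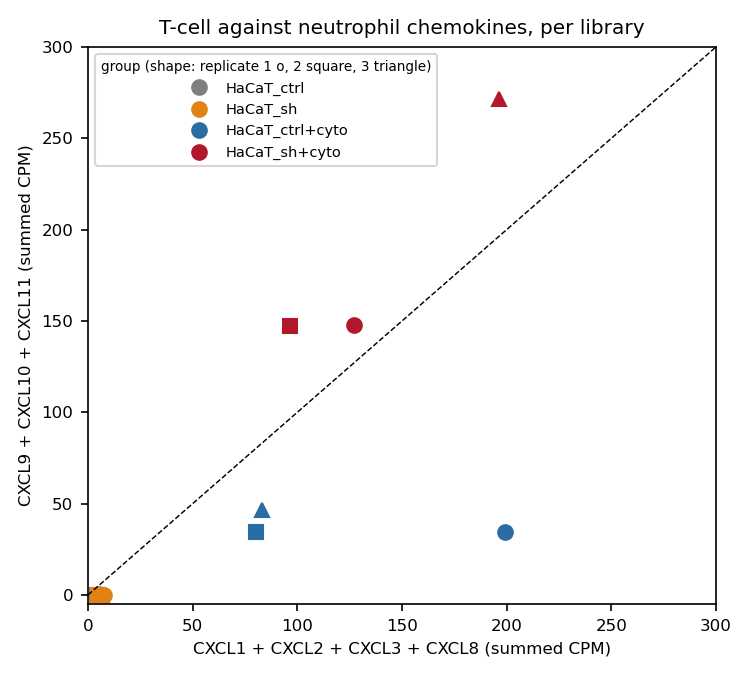
Summed CPM of CXCL9, CXCL10 and CXCL11 (y) against that of CXCL1, CXCL2, CXCL3 and CXCL8 (x) in each library, with the dashed line marking equal sums. All 3 HaCaT_sh+cyto libraries lie above the line and all 3 HaCaT_ctrl+cyto libraries below it, with HaCaT_ctrl+cyto replicate 1 furthest to the right at 199 CPM, and unstimulated libraries lie near the origin.

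Per kilobase of exon, which allows genes to be compared, the order of the 8 members that passed the filter differed between the stimulated lines. In HaCaT_ctrl+cyto CXCL8 came first at 35.9 ± 18.5 CPM per kb (SD, n = 3), before CXCL1 at 17.8 ± 12.2, CXCL10 at 16.6 ± 2.81, ACKR3 at 14.9 ± 1.91, CXCL9 at 5.03 ± 1.35, CCL22 at 4.44 ± 1.45, CXCL11 at 2.91 ± 0.39 and CXCL3 at 1.70 ± 1.45 CPM per kb. Libraries of neighbours in this order overlapped, except those of ACKR3 and CXCL9. In HaCaT_sh+cyto CXCL10 came first at 86.9 ± 45.5 CPM per kb, before CXCL8 at 45.3 ± 17.9, CXCL9 at 21.2 ± 2.29, CXCL11 at 15.9 ± 7.51, CXCL1 at 15.4 ± 3.57, CCL22 at 9.03 ± 1.67, ACKR3 at 5.09 ± 0.76 and CXCL3 at 0.875 ± 0.136 CPM per kb. Here the libraries of CXCL10 and CXCL8 overlapped, as did those of CXCL9 and CXCL11 and of CXCL11 and CXCL1, and the other neighbours did not.

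A fit over the 12 libraries tested whether the cytokine response itself differed between the lines, as an interaction term. It uses the same libraries as the comparisons above. By edgeR's quasi-likelihood test CCL22 was called: its fall was smaller in the libraries labelled HaCaT_sh by 1.30 ± 0.25 on the log2 scale (edgeR adjusted p = 0.00283), where 1.4% of all genes were called in this direction, 1.23% in the other and 2.62% in either. The values ran from 1.08 to 1.56 when each of the 12 libraries was left out, all called. CXCL9 and CXCL10 had no unstimulated count in either line, so their interaction has no defined value. The comparison between stimulated groups above is of levels, and a difference of response was not tested for these genes. CXCL11 gave 7.01 ± 2.23 (edgeR adjusted p = 0.0453) and was not called, although DESeq2, edgeR's likelihood ratio test and limma-voom called it, and the size of this estimate depends on the prior count because the HaCaT_sh libraries were at 0. The differences were −0.74 ± 0.72 for CXCL8, 0.85 ± 0.62 for CXCL1, −0.84 ± 1.22 for CXCL3 and −0.17 ± 0.16 for ACKR3 (edgeR adjusted p = 0.516, 0.377, 0.682 and 0.498). Without HaCaT_ctrl+cyto replicate 1, CXCL1 reached 1.57 (edgeR adjusted p = 0.00185) and was called.

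Other chemokines gave a background for the members. Of 35 further chemokine symbols 27 matched an identifier. CCL3, CCL4, CCL5, CCL14, CCL15, CCL16, CCL18 and CCL23 matched none and were not examined. Of the 27, 6 and 7 passed the filter in the cytokine comparisons of the control line and the libraries labelled HaCaT_sh. The control line had 3 called higher and 2 called lower, and the other line 4 and 1. Of all genes, 14.7% and 21.1% were called higher and lower in the control line, and 14.9% and 21% in the other. CXCL16, a membrane-bound ligand of CXCR6, had the highest level per kilobase of the chemokines measured in every group, 157 CPM per kb in HaCaT_ctrl+cyto and 180 CPM per kb in HaCaT_sh+cyto. It measured 134 to 140 CPM in HaCaT_ctrl and 379 to 507 CPM in HaCaT_ctrl+cyto (log2 fold change 1.71) and 142 to 149 and 407 to 617 CPM in the other line (1.79). CCL28, an epithelial ligand of CCR10, rose by 1.01 and by 1.92. CCL2, which attracts monocytes, fell from 4.20 to 4.90 CPM in HaCaT_ctrl to at most 0.121 CPM in HaCaT_ctrl+cyto, and from 2.40 to 5.42 CPM to at most 0.490 CPM in the libraries labelled HaCaT_sh. CCL17, which shares the receptor CCR4 with CCL22, was lower with cytokines in the control line (−1.53) and was at −0.42 (edgeR adjusted p = 0.111) in the libraries labelled HaCaT_sh. Between the stimulated lines CCL17 gave 1.28 (edgeR adjusted p = 0.0104), just outside the limit, with 1.64 to 1.82 CPM in HaCaT_sh+cyto against 0.521 to 0.909 CPM in HaCaT_ctrl+cyto.

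The ELR chemokines outside the group were low. CXCL5 had 75 counts in HaCaT_ctrl+cyto replicate 1 and 7 in each of the other libraries of that group, 11.3 times their mean in CPM, and 20, 20 and 31 counts in HaCaT_sh+cyto. PPBP had 69, 20 and 29 counts in HaCaT_ctrl+cyto and 46, 54 and 22 in HaCaT_sh+cyto, against 1 count in all unstimulated libraries together. CXCL6 measured 1.76 CPM in HaCaT_ctrl+cyto replicate 1 and 0.628 and 0.545 CPM in the others. HaCaT_ctrl+cyto replicate 1 held the highest level of its group for CXCL1, CXCL3, CXCL5, CXCL6, CXCL8 and PPBP, but also for CXCL16 (507 CPM), CXCL17 (1.63 CPM), CCL28 (12.8 CPM) and ACKR3, and not for CXCL9, CXCL10, CXCL11, CCL22 or CCL17. Between the lines, none of these further chemokines was called by edgeR's quasi-likelihood test either without cytokines (5 tested, 1 at an unadjusted p below 0.05) or with them (7 tested, 3 at an unadjusted p below 0.05), and none by DESeq2 or limma-voom, while edgeR's likelihood ratio test called 1 with cytokines. Of all genes, the quasi-likelihood test called 8.87% without and 4.13% with cytokines, so few calls are found in so short a list. For the difference of cytokine responses it called none of 6 tested, where 2.62% of all genes were called. An unadjusted p below 0.05 in that test was reached by 4 of the 6. Their median difference was 1.38 on the log2 scale against 0.004 for all genes. All 22 conventional and atypical chemokine receptors other than ACKR3 stayed below the filter in every comparison, CXCR2 reaching at most 1.62 CPM.

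**Figure D5:**
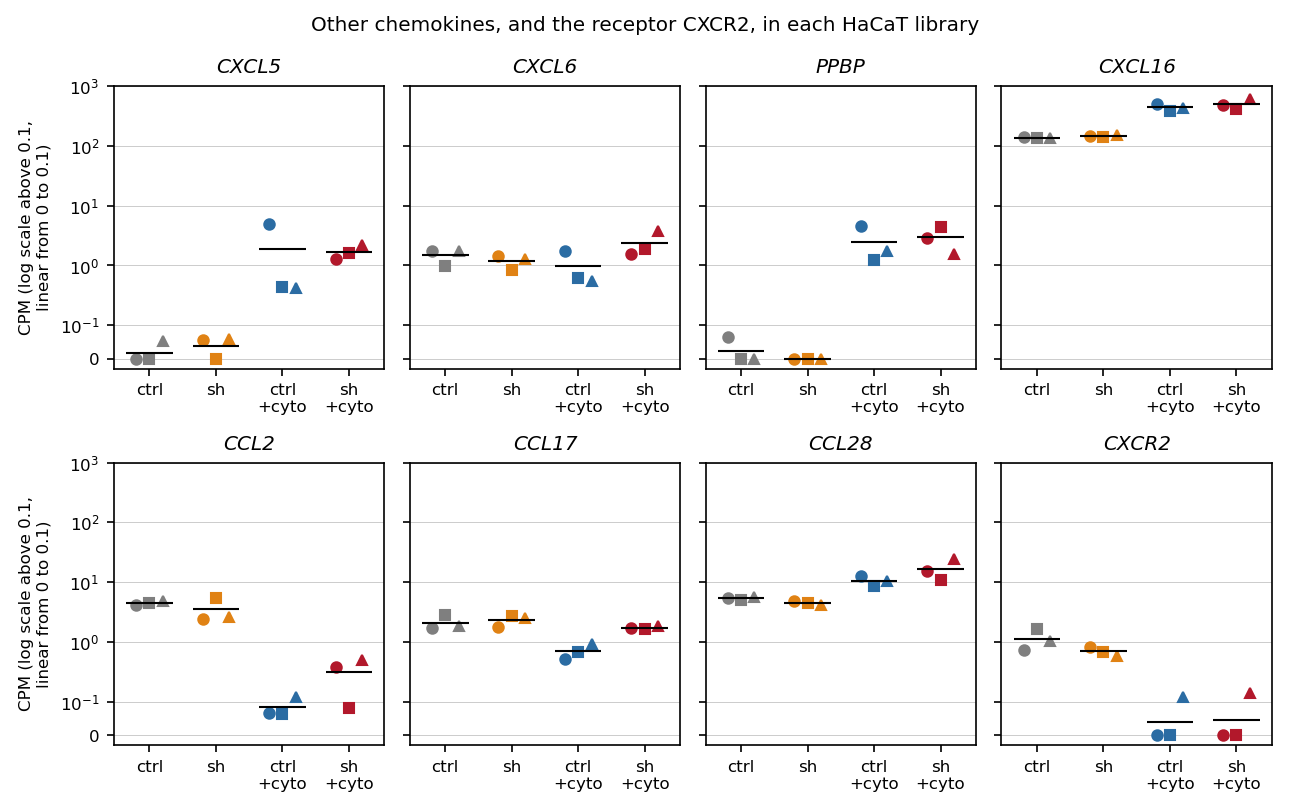
CPM of 7 further chemokines and of the receptor CXCR2 in each library, with symbols, group means and axis as in the plot of the members. CXCL5 is highest in HaCaT_ctrl+cyto replicate 1 at 4.89 CPM, CXCL16 rises with cytokines in both lines, CCL2 falls, and CCL17 is lower in HaCaT_ctrl+cyto than in HaCaT_sh+cyto.

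Among genes that carry the cytokine signals to these promoters, 1 gene was called between the lines, without cytokines. In a list of IFNγ signalling genes, SOCS1, a feedback inhibitor of cytokine receptors, rose by 5.67 on the log2 scale in the control line and by 4.77 in the libraries labelled HaCaT_sh. Between the unstimulated lines SOCS3, another feedback inhibitor, was the only one of 12 genes of this list tested that was called, higher by 1.20 in the libraries labelled HaCaT_sh. An unadjusted p below 0.05 in edgeR's quasi-likelihood test was reached by 9 of the 12. Of all genes, 8.87% were called in that comparison. With cytokines edgeR called 0 of 13 between the lines, 4 of them having an unadjusted p below 0.05, and DESeq2, edgeR's likelihood ratio test and limma-voom also called 0. With 4.13% of all genes called there, 0 calls in a list of this size do not show that the lines were alike. IRF1, an IFNγ-induced transcription factor that acts on ISRE sequences, was at 0.87 (edgeR adjusted p = 9.52e-04), under the 2-fold limit. Without cytokines IRF1 was at 0.80 between the lines (edgeR adjusted p = 3.11e-07), and its difference of responses was 0.07 (edgeR adjusted p = 0.790).

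Of 27 genes of IL17 and TNFα signalling to NF-kB, 11 were called higher and 2 lower in the control line, and 9 rose and 3 fell in the other line. Over all genes 14.7% and 21.1% were called higher and lower in the control line, and 14.9% and 21% in the other. TNFAIP3, the ubiquitin-editing inhibitor of NF-kB, rose by 5.58 and 5.92, and TNIP1, its binding partner, by 1.90 and 1.82. TAB3, an adaptor of the TAK1 kinase, rose by 1.91 in the control line and 1.02 in the libraries labelled HaCaT_sh, and RELB, an NF-kB subunit of the non-canonical pathway, by 2.02 and 2.73. Between the lines edgeR called 0 of 27 without cytokines (22 with an unadjusted p below 0.05) and 0 of 27 with them (8 with an unadjusted p below 0.05), as did DESeq2, edgeR's likelihood ratio test and limma-voom. The smallest p without cytokines were those of NFKB1 (log2 fold change −0.82, edgeR adjusted p = 3.30e-09), TNFRSF1A (0.65, edgeR adjusted p = 5.36e-08) and TAB3 (0.66, edgeR adjusted p = 2.07e-07). These genes differed between the lines by less than 2-fold and so were not called. Of 10 regulators of chemokine mRNA decay, ZC3H12C rose by 3.07 and 2.66 and ZC3H12A (Regnase-1), a ribonuclease of inflammatory transcripts, by 1.18 and 1.26. TRAF5 was lower by 1.94 in the control line (log2 fold change −1.94) and 1.42 in the other (−1.42), with ARID5A at −1.13 in the libraries labelled HaCaT_sh. None of these regulators was called between the lines by edgeR's quasi-likelihood test (5 of 10 without and 4 of 9 with cytokines at an unadjusted p below 0.05) or by the other tools. Of all genes, 8.87% were called between the lines without and 4.13% with cytokines. With the 2-fold limit and at these shares, 0 calls in lists of this size do not show that the lines were alike.

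The genes with the nearest pattern over the 12 libraries were sought for a T-cell and for a neutrophil chemokine. Likeness was the root-mean-square difference of centred log2 CPM (prior count 2) among protein-coding genes that reached 1 CPM in 50% or more of the libraries, and it is a description over 12 libraries that share their cells and groups. Nearest to CXCL10, whose own root-mean-square deviation was 4.30, were CXCL9 at 0.40, RGS4 at 0.70, GBP5 at 0.80 and IL13RA2 at 0.80. Nearest to CXCL8, with a deviation of 2.73, were PLAUR at 0.53, NEURL1 at 0.53, INHBE at 0.57 and NOS2 at 0.58. GBP5 is a guanylate-binding protein induced by IFNγ, PLAUR is the urokinase receptor and NOS2 the inducible nitric oxide synthase. The measure depends on the size of a gene's changes, and CXCL10 and CXCL8 differ in that size (4.30 and 2.73). Genes this near to 1 of them could not also be this near to the other, so their lists were not compared. CCL20 was too low to be placed.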

How the data were processed

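RNA of HaCaT_ctrl and HaCaT_sh cells with and without cytokines (12 libraries, 3 biological replicates in each of 4 groups) was made into directional libraries and sequenced in pairs by the authors. Per the paper's methods, the authors trimmed reads with Cutadapt (quality limit 10, minimum length 25), mapped them to hg19 with STAR and the Gencode annotation, and deposited raw counts per gene, with a second deposited table of CPM that was not used here. The counter is not given in the sources used here. All 12 count columns were matched to samples by name.

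Groups were compared in edgeR 4.0.16 (R 4.3.3) with TMM scaling, the quasi-likelihood test and Benjamini-Hochberg adjustment over all genes that reached 1 CPM in 50% or more of the compared libraries. Each of 4 comparisons of 2 groups was fitted on its own libraries, and the difference of cytokine responses on all 12. Calls needed an adjusted p below 0.01 and a change of at least 2-fold. SE is the log2 fold change divided by the square root of F. CPM printed were TMM-scaled over all 12 libraries. The script was tested on simulated data. Alternatives were DESeq2 1.42.0, limma-voom (limma 3.58.1), edgeR's likelihood ratio test, other scalings, filters and thresholds, a replicate block, 1 joint fit and leaving out each library. All 10 members are named. Of other lists, chemokines and receptors passing the filter may be named, and up to 3 genes by smallest p from each signalling list. For CXCL10, CXCL8 and CCL20 the 4 nearest genes were sought. IRF1 was named after its values were seen. The members and lists were chosen with earlier results of these data known. Promoter sequences and motif shares come from RefSeq, and gene positions from a later Gencode release lifted to GRCh37. No library was left out. A result of the IFNγ signalling list is not reported here.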

Additional observations from a re-analysis of the deposited data

Results flagged for a closer look

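CCL22 was called for a difference between the lines in its cytokine response, by edgeR's quasi-likelihood test of the difference itself. The interaction over 12 libraries was 1.30 ± 0.25 on the log2 scale (edgeR adjusted p = 0.00283), with a fall of 2.31 (log2 fold change −2.31) in the control line and of 1.03 (−1.03) in the libraries labelled HaCaT_sh. CCL22 was lower with cytokines in all 3 libraries of each line. Of 6 further chemokines tested for this difference none was called, where 2.62% of all genes were. Their median difference was 1.38 on the log2 scale against 0.004 for all genes. A difference of the size seen for CCL22 was thus not particular to it.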

How the results depend on the processing

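Of 574 alternative values of members, 546 kept their direction and their side of the threshold. Of 170 counts of members called, 152 equalled the main count or lay close to it as a ratio. A count that lost 1 member could be among these. The count of members higher between the lines without cytokines went from 1 to 0, and that of members lower from 2 to 1, when all 12 libraries shared 1 fit (CXCL1 −1.04, edgeR adjusted p = 0.114, and CXCL8 1.08, edgeR adjusted p = 0.173), and they ranged from 0 to 1 and from 1 to 2 over left-out libraries. The count of members higher in the difference of responses went from 1 to 2 with DESeq2, edgeR's likelihood ratio test, limma-voom, no filter on low counts and an adjusted p below 0.05, through CXCL11 (6.48, 7.01, 4.99, 6.98 and 7.01), and ranged from 1 to 2 over left-out libraries. Members lower in the libraries labelled HaCaT_sh with cytokines ranged from 1 to 2, through CCL22, and members higher between the stimulated lines from 3 to 4. Between the stimulated lines the sign turned without HaCaT_ctrl+cyto replicate 1 for CXCL1 (0.51, range over left-out libraries −0.49 to 0.51) and CXCL3 (0.011, range −1.28 to 0.011) and without HaCaT_sh+cyto replicate 3 for CXCL8 (−0.017, range −0.017 to 0.84). The difference of responses of CXCL3 turned to 0.13 without HaCaT_ctrl+cyto replicate 1 (range −1.17 to 0.13). Scaling by library size alone ended the call of CCL22 between the stimulated lines (0.94). The cause of these changes was not tested. Same-numbered libraries did not deviate together (correlations from −0.135 to 0.197), and a replicate block changed no call: all 34 values and 10 counts stood, with 6 members higher and 2 lower in each cytokine comparison. CXCL2 and CCL20 lay at or below 3 counts per library, and the reason for their low counts was not tested.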
